A study of Homo sapiens with 8 samples.

Results

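The genes described here are 72 genes of the centrosome and of transport inside cilia, read from 73 of the 33297 probe sets of the array. They were picked by symbol: names made of CEP, IFT or BBS and a number, and the centrosome genes PLK4, STIL, SASS6, PCNT, CDK5RAP2, PCM1, NIN, TUBG1 and NEDD1. CENPJ also belongs to the rule but has no row under that symbol; the array annotation carries the gene as CPAP, its current symbol, and its values are given beside the members without being counted. No signal value chose the members, but the family was proposed with results of this same contrast known, so the calls below describe these genes and are no independent support for a direction.

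BT549, a human triple-negative breast cancer cell line, was profiled on 8 whole-transcript arrays. In 4 cultures the cells grew attached to tissue culture plastic, and in 4 they were kept floating above a non-adhesive poly-HEMA coating. Both groups received RPMI medium with serum and insulin and no other agent is named. Suspension lasted 24 h; the labels give the attached cultures as 24 h in one field and 48 h in another, so culture time and attachment cannot be told apart if the longer time holds. The samples are described as biological quadruplicates of 1 line, and p-values speak to the spread between these cultures only. The comparison asks which transcripts differ when the cells are kept from attaching.

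Centrosomes are built around a pair of centrioles, which duplicate once in each cell cycle. The kinase PLK4 starts a new centriole, STIL and SASS6 form its cartwheel, and pericentriolar material recruits the gamma-tubulin that nucleates microtubules. When cells leave the cycle a centriole can become the base of a primary cilium, along which IFT trains, of an A and a B complex, carry cargo outward and back; the BBSome, built from BBS proteins, moves membrane proteins through the cilium on these trains. RNA signals do not count centrioles or cilia, and in bulk RNA fewer cells expressing a gene and less RNA per cell cannot be told apart.

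Array medians lay between 6.02 and 6.07 on the log2 scale, and arrays correlated at r = 0.993 to 0.996 within and 0.987 to 0.994 between the groups over all probe sets. Of 10 markers of mesenchymal breast cancer cells 0 had a mean signal below 5.28, the 25th percentile of gene means. Signals below that level were read for 4 of 10 luminal or epithelial, 4 of 7 leukocyte, 4 of 5 endothelial and 5 of 9 multiciliated cell markers. No detection call was used here, so a low signal says nothing on presence. Of the mesenchymal markers 5 rose (SPARC, ZEB1, CD44, COL1A1 and ZEB2, by 0.19 to 0.37 on the log2 scale) and AXL (-1.04) and CDH2 (-0.38) fell. Of the luminal markers GATA3 (0.49) and FOXA1 (0.18) rose and 0 fell, and of the leukocyte markers CD14 (0.22) rose and CD68 (-0.39) fell. FOXA1 lost its call when any array but suspended replicate 3 was dropped (0.13 to 0.21), and CD14 when any but suspended replicate 2 was (0.15 to 0.27). The mean signal of the luminal list ran from 5.92 to 5.99 on the attached and 5.99 to 6.07 on the suspended arrays, and the part of these markers in the results below was not tested.

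In suspension 9 of 16 genes of centriole assembly and its control fell, and 3 BBS genes and IFT80 rose. Of 18 IFT genes 16 did not pass the test. By limma, with p adjusted over all 18417 genes and a threshold of 0.05, 17 of the 72 genes fell and 4 rose. With 1 array left out, BBS1 among the rises and CEP43, CEP85, IFT56 and NEDD1 among the falls lost their calls in some refits. Over all genes 10.2% fell, 10.4% rose and 20.6% were called in either direction. All but 1 of the genes that fell are among the 46 CEP and named centrosome genes (16 falls, 0 rises). The 4 that rose are among the 26 IFT and BBS genes, of which 1 fell. For 25 of the 72 genes, 18 lower and 7 higher, all suspended values lay on one side of the attached ones, against 24.8% of all genes. The median log2 difference (suspended minus attached) was -0.04 over the members and 0.02 over all genes tested.

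**Figure D1:**
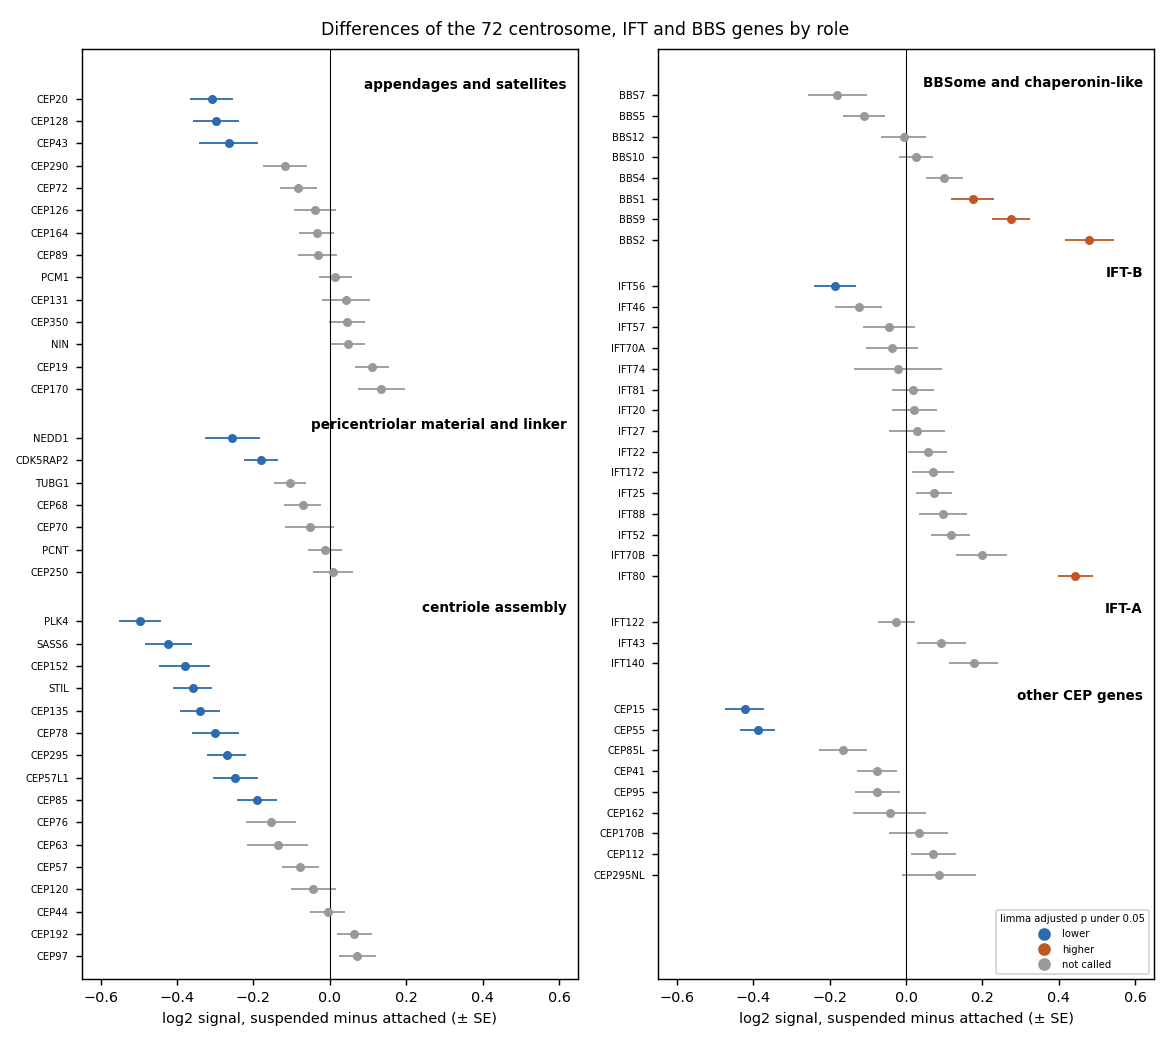
Log2 signal differences, suspended minus attached, for the 72 genes sorted by role, with limma standard errors as bars. Blue points are genes called lower, orange genes called higher and grey genes not called at limma adjusted p under 0.05. The centriole assembly genes reach down to -0.50 (PLK4), while BBS2 (0.48) and IFT80 (0.44) lie at the other end.

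Among 16 genes of centriole assembly and its control 9 fell and 0 rose (median log2 difference -0.22), and in all 9 the groups did not overlap. Called were 56.2% of the 16, against 20.6% of all genes. PLK4, the kinase whose level limits centriole duplication, gave signals of 8.17, 8.22, 8.20 and 8.21 on attached arrays 1 to 4 and 7.55, 7.77, 7.74 and 7.75 on suspended arrays 1 to 4. Every suspended value lay below every attached one, and suspended replicate 1 was the lowest. With n = 4 in each group the log2 difference came to -0.50 (SE 0.055, limma adjusted p = 7.26e-05), a 1.41-fold lower signal, and it was -0.45 without suspended replicate 1.

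The partners of PLK4 at the start of a new centriole fell as well. STIL, which PLK4 phosphorylates, went from 9.02, 9.09, 9.07 and 9.08 to 8.61, 8.69, 8.80 and 8.72 (log2 difference -0.36, SE 0.051, limma adjusted p = 4.05e-04). SASS6, which gives the cartwheel its shape, went from 8.20, 8.25, 8.37 and 8.32 to 7.72, 7.92, 7.93 and 7.88 (-0.42, SE 0.061, adjusted p = 4.61e-04). For both genes all attached values lay above all suspended ones.

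CEP152, the scaffold that brings PLK4 to the mother centriole, read 5.36, 5.54, 5.31 and 5.49 attached and 5.01, 5.14, 5.12 and 4.92 suspended (-0.38, SE 0.068, adjusted p = 0.00197). Its mean signal lies at the 24.0th percentile of genes, below the 25th percentile, and no background measure was used here. CPAP, the CENPJ of the rule, elongates centriole microtubules; it read 6.92, 6.90, 6.97 and 6.94 attached and 6.35, 6.59, 6.56 and 6.67 suspended (-0.39, SE 0.065, adjusted p = 0.00131). CEP192 and CEP63, which work with CEP152 in placing PLK4, did not pass the test (0.06, SE 0.045, and -0.14, SE 0.079). A value that misses the threshold does not show that a gene was unaltered.

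**Figure D2:**
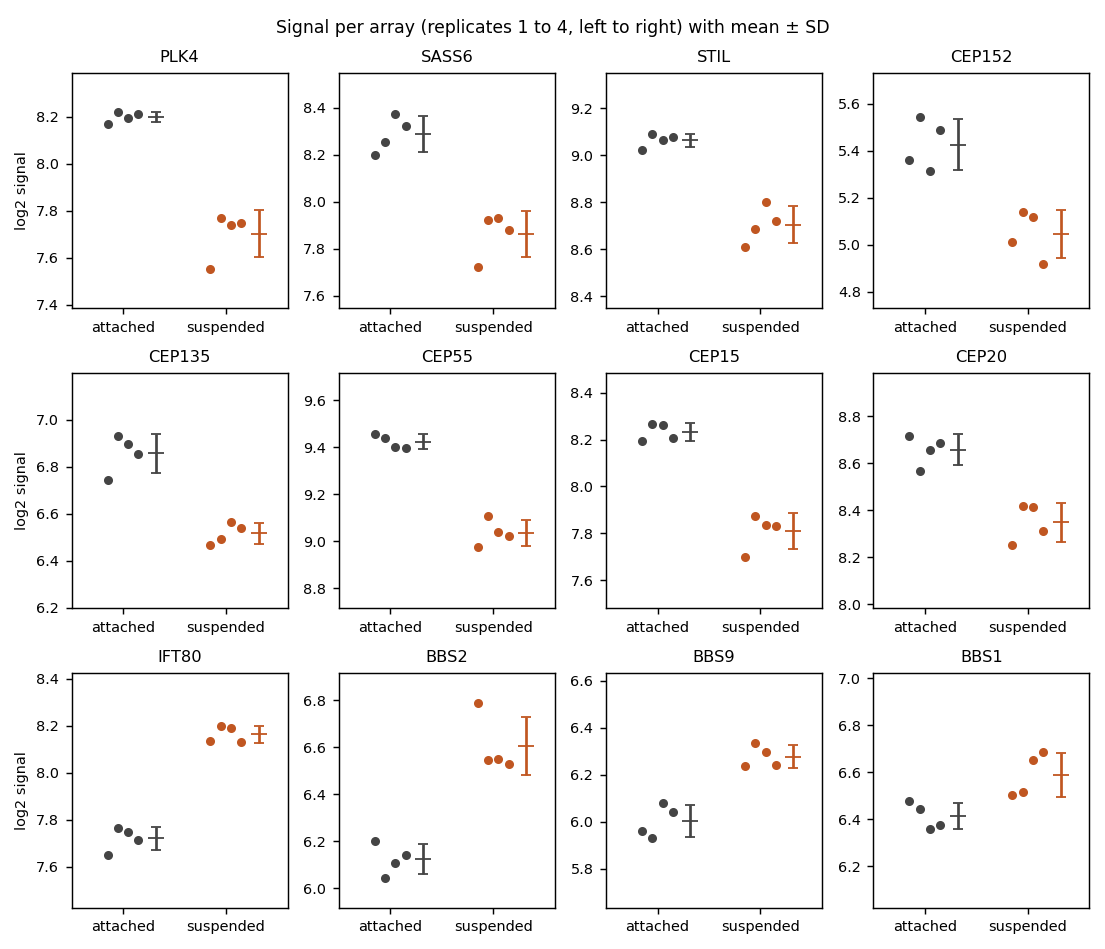
Log2 signals on the single arrays (replicates 1 to 4 from left to right) for the 8 largest falls and all 4 rises among the members, with the group mean and SD beside them; each panel spans 1 log2 unit. The groups do not overlap in any of the 12 panels, and suspended replicate 1 stands low for PLK4 (7.55) and high for BBS2 (6.79).

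CEP135, a structural protein of the cartwheel and centriole wall, read 6.74, 6.93, 6.90 and 6.85 attached and 6.47, 6.49, 6.57 and 6.54 suspended (-0.34, SE 0.053, adjusted p = 7.68e-04). The other falls in this group were CEP78 (-0.30), CEP295 (-0.27), needed for turning a new centriole into a centrosome, CEP57L1 (-0.25) and CEP85 (-0.19). In 8 refits, each with 1 array left out, CEP85 spanned -0.22 to -0.17 and lost its call when attached replicate 3 or 4, or replicate 1 or 3 of the suspended arrays, was dropped. Not past the test were CEP76 (-0.16), CEP57 (-0.08), CEP120 (-0.04), CEP44 (-0.01) and CEP97 (0.07), a cap protein that restrains centriole growth.

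Short motifs were searched in the promoters of these genes, because cell cycle genes are known to carry a CHR element, bound by the DREAM and MuvB complexes, often near a CCAAT box, and ciliary genes an X-box, bound by RFX factors. RefSeq promoter windows of 300 bases, 250 before and 50 after an annotated start (GRCh38.p14), were at hand for 64 of the 72 genes, as 79 windows, since a gene can have several starts. The motifs were TTTGAA or TTCGAA for CHR, CCAAT, TTTCCCGC or TTTGGCGC for E2F sites, and the X-box consensus, all on both strands. A CHR match lay in 26.6% of the members' windows, against 16.4% of all 35116 windows in the table and 13.7% of those of protein-coding genes. It lay in 7 of 19 windows of genes that fell (36.8%), in 1 of 3 of genes that rose (33.3%) and in 13 of 57 of genes not called (22.8%). A CCAAT box lay in 44.3% of the members' windows and 34.6% of all, with 47.4% for genes that fell and 43.9% for genes not called. An E2F match lay in 5.06% and 2.27%, with 5.26% both for genes that fell and for genes not called. These are descriptions of letters, not of bound sites, and windows of a gene can overlap.

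CEP295 is shown because a CCAAT box (reverse strand, from base -60) and a CHR match (from base -48) stand close together before its start, and CEP135 for an X-box match; PLK4 is shown for the CHR match after the first of its 3 annotated starts. Capitals mark these matches. Outside the printed bases CEP135 also holds a CHR match (from base 4). The window of start 3 of PLK4 holds a CCAAT box (from base -86) and an X-box match (from base -238). The windows are chr11:93661432-93661681 (plus strand, CEP295), chr4:55948695-55948944 (plus strand, CEP135) and chr4:127880915-127880942 (plus strand, PLK4), all in GRCh38.p14.
CEP295: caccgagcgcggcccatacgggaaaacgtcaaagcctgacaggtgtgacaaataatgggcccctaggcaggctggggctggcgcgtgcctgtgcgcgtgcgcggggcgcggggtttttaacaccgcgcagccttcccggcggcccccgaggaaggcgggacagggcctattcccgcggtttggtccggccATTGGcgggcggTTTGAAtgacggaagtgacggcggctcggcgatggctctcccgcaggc
CEP135: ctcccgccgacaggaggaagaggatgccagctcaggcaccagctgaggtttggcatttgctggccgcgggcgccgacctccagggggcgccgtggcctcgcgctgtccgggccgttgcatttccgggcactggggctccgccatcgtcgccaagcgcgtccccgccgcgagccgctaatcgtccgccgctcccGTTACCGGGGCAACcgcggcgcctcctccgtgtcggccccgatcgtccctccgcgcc
PLK4: caagcggcgggagattTTCAAAatggga

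Of 7 genes of the pericentriolar material and the centrosome linker 28.6% were called, against 20.6% of all genes. Among these 7 genes 2 fell and 0 rose (median log2 difference -0.07, and 0.02 over all genes tested). They were CDK5RAP2 (-0.18), which anchors gamma-tubulin complexes, and NEDD1 (-0.26), which targets them to the centrosome. CDK5RAP2 read 7.80 to 7.85 on the attached and 7.60 to 7.70 on the suspended arrays (limma adjusted p = 0.0129). NEDD1 read 7.71 to 7.85 attached and 7.32 to 7.67 suspended (limma adjusted p = 0.0273), with suspended replicate 1 lowest, and lost its call when attached replicate 1, 3 or 4, or replicate 4 of the suspended arrays, was dropped (-0.30 to -0.18 in the 8 refits).

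PCNT, the large scaffold of the pericentriolar material, did not differ beyond the array spread. It read 6.91, 7.00, 6.97 and 6.94 attached and 6.94, 6.91, 7.00 and 6.94 suspended (-0.01, SE 0.044), and the groups overlap fully. TUBG1, gamma-tubulin itself, read 11.51 to 11.58 attached and 11.41 to 11.47 suspended; its groups do not overlap, but its difference of -0.10 (SE 0.043) missed the threshold (limma adjusted p = 0.11). CEP68 (-0.07) and CEP250 (0.01), which link the centrosome pair, and CEP70 (-0.05) did not pass either.

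Of 14 genes of centriole appendages and satellites 3 fell and 0 rose, so 21.4% were called, against 20.6% of all genes. CEP20, a satellite and basal body protein, read 8.72, 8.57, 8.66 and 8.69 attached and 8.25, 8.42, 8.41 and 8.31 suspended (-0.31, SE 0.056, limma adjusted p = 0.00205). CEP128, a subdistal appendage protein, fell by 0.30 on the log2 scale. CEP43, also known as FOP, which sits at centrioles and satellites, read 6.72, 6.69, 6.73 and 6.78 attached and 6.31, 6.65, 6.58 and 6.32 suspended (-0.27, SE 0.078, limma adjusted p = 0.0319). Suspended replicates 1 and 4 lay lowest, and the call was lost when any 1 of the attached arrays, or either of those, was dropped (-0.33 to -0.21 in the 8 refits).

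The remaining 11 genes of this group did not pass the test. The satellite scaffold PCM1 (0.01), the satellite proteins CEP131 (0.04), CEP72 (-0.08), CEP126 (-0.04) and CEP290 (-0.12), which also works at the transition zone, lay close to 0. So did the distal appendage proteins CEP164 (-0.03) and CEP89 (-0.03), the subdistal appendage protein NIN (0.05) and CEP350 (0.04). CEP19 read 5.03 to 5.10 attached and 5.13 to 5.24 suspended, groups that do not overlap, but missed the threshold (0.11, limma adjusted p = 0.11). CEP170 differed by 0.13 (SE 0.062), and its second probe set by 0.11 (SE 0.086), neither called.

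Of 9 further CEP genes CEP15 and CEP55 fell and 0 rose, so 22.2% were called, against 20.6% of all genes. CEP55, which acts at the midbody in the last step of cell division rather than in building the centrosome, read 9.46, 9.44, 9.40 and 9.40 attached and 8.97, 9.11, 9.04 and 9.02 suspended. Its highest suspended value lies below its lowest attached one, and the difference was -0.39 (SE 0.046, limma adjusted p = 1.28e-04). CEP15 read 8.19, 8.27, 8.26 and 8.21 attached and 7.70, 7.88, 7.83 and 7.83 suspended (-0.42, SE 0.051, limma adjusted p = 1.37e-04), again without overlap. CEP85L (-0.16), CEP41 (-0.08), CEP95 (-0.08), CEP162 (-0.04), CEP170B (0.03), CEP112 (0.07) and CEP295NL (0.09) did not pass the test; CEP85L did when suspended replicate 3 was dropped (-0.21).

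The bases before the CEP55 start are shown because they hold a CHR match and a CCAAT box (in capitals, from bases -116 and -102), elements known from mitotic genes; another CHR match, from base -3, runs across the start and is not capitalised. The window is chr10:93496362-93496611 (plus strand, GRCh38.p14).
CEP55: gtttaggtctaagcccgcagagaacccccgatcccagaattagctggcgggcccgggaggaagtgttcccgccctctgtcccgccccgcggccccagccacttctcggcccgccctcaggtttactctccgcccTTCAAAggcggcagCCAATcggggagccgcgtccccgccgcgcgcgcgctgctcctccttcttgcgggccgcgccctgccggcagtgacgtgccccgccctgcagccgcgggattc

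**Figure D3:**
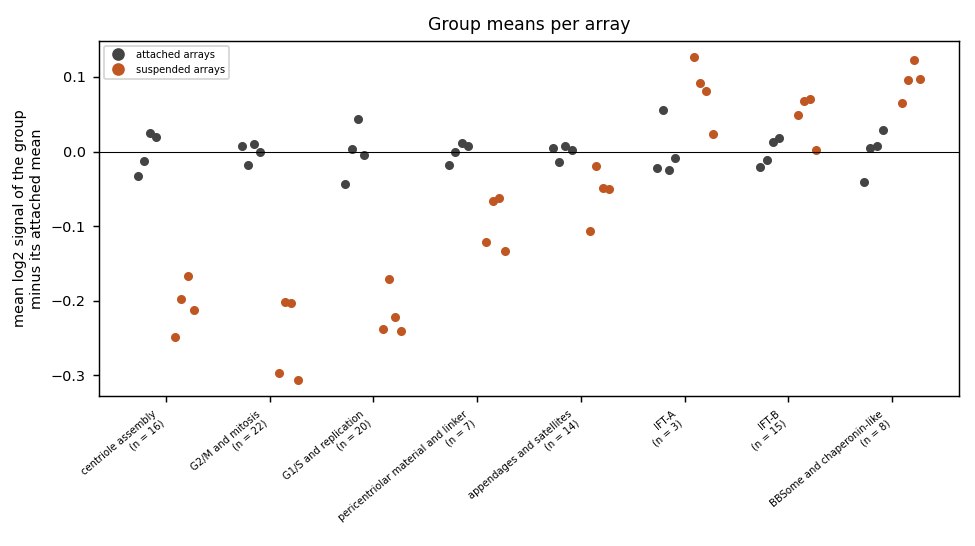
Mean log2 signal of gene groups on each array, relative to the mean of the attached arrays, for 6 of the member groups and the 2 cell cycle lists. The centriole assembly group lies between -0.25 and -0.17 on the suspended arrays and the BBS group between 0.07 and 0.12.

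Genes of the cell cycle fell beside the centriole genes. Of 22 genes of G2/M and mitosis 18 fell and 0 rose (median log2 difference -0.25), among them TTK (-0.39), HMMR (-0.33), CCNA2 (-0.32) and BUB1B (-0.31). Their mean signal ran from 9.22 to 9.25 on the attached and from 8.93 to 9.04 on the suspended arrays. In the 8 refits with 1 array left out 14 to 17 of the 22 fell, and CCNB1 lost its call in each (-0.15 to -0.12). Of 20 genes of G1/S and replication 13 fell and 0 rose (median -0.19), among them CDC6 (-0.51), CDC45 (-0.49), GINS1 (-0.40) and RRM1 (-0.36). Falls in that list numbered 10 to 13 in the same refits. The mean over the 16 centriole assembly members ran from 7.13 to 7.19 attached and from 6.92 to 7.00 suspended. Of the G2/M list 81.8% and of the G1/S list 65% were called, against 20.6% of all genes. The part of the cell cycle genes in the falls of the centriole genes was not tested.

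A wider list of centriole duplication and length genes, 17 of its 27 tested genes being members, held 13 falls and 0 rises. Most of these falls are of members already described, so the list mainly counts them again. Of the list 48.1% were called, against 20.6% of all genes. Outside the members CENATAC (-0.65), CCP110 (-0.28), the cap protein that works with CEP97, and POC1A (-0.28) fell, as did the member CDK5RAP2. POC1A lost its call when attached replicate 2 or 3, or replicate 2, 3 or 4 of the suspended arrays, was dropped (-0.33 to -0.22 in the 8 refits). Of 25 genes of pericentriolar material and microtubule nucleation, 6 of them members, 32% were called, against 20.6% of all genes. In that list 8 fell and 0 rose, and 5 fell without attached replicate 1 or 4. The falls include HAUS2 (-0.44) and HAUS6 (-0.40), subunits of augmin, TUBGCP4 (-0.31), a gamma-tubulin complex subunit, and TACC3 (-0.29). MZT2A (-0.21) and MZT2B (-0.22) fell too. MZT2A lost its call when any array but suspended replicate 3 was dropped (-0.26 to -0.16), and MZT2B when attached replicate 1, 2 or 4, or replicate 1 or 2 of the suspended arrays, was (-0.25 to -0.18).

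Of 14 satellite genes CCDC66 (-0.34), CCDC14 (-0.22) and CEP20 fell and MIB1 (0.21) rose; MIB1 lost its call when attached replicate 2 or 3, or replicate 1 or 4 of the suspended arrays, was dropped (0.17 to 0.24 in the 8 refits). Of 15 appendage genes SCLT1 (-0.31) and CEP128 fell and 0 rose, while CEP170 and CCDC120 (0.13) were not called. Of the satellite list 28.6% and of the appendage list 13.3% were called, against 20.6% of all genes. Of 10 genes of cilium disassembly KIF24 (-0.33), TCHP (-0.31), PLK1 (-0.24), AURKA (-0.22) and TPX2 (-0.17) fell and 0 rose. Of that list 50% were called, against 20.6% of all genes. AURKA, PLK1 and TPX2 also stand in the mitosis list, and TPX2 lost its call when attached replicate 3 or 4, or replicate 1 of the suspended arrays, was dropped (-0.19 to -0.15 in the 8 refits).

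**Figure D4:**
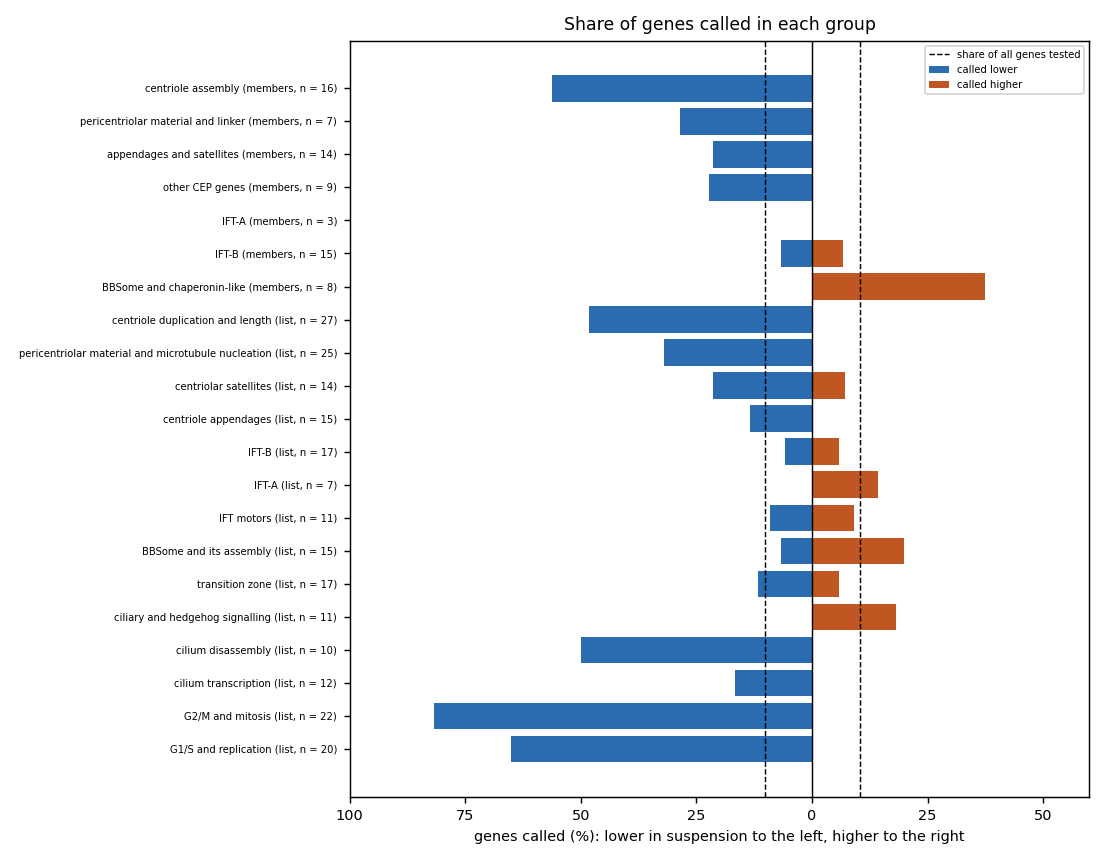
Percent of genes called lower and higher by limma in each group of members, and each wider gene list, with dashed lines at the shares of all 18417 genes tested. Of the 16 centriole assembly genes 56.2% were called, all lower, against 20.6% of all genes in either direction.

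Of the IFT genes, IFT80 rose and IFT56 fell, and the other 16 of 18 did not pass the test. Called were 11.1% of the 18, against 20.6% of all genes. IFT80, a subunit of the B complex, read 7.65, 7.77, 7.75 and 7.71 attached and 8.14, 8.20, 8.19 and 8.13 suspended. All suspended values lie above all attached ones, and the difference of 0.44 (SE 0.046, limma adjusted p = 4.60e-05) is a 1.36-fold higher signal. IFT56, a peripheral B subunit, read 6.06, 5.93, 5.93 and 5.96 attached and 5.68, 5.87, 5.81 and 5.76 suspended (-0.19, SE 0.055, limma adjusted p = 0.0319). Its call was lost when attached replicate 1, 3 or 4, or replicate 1 or 4 of the suspended arrays, was dropped (-0.22 to -0.15 in the 8 refits).

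The other 13 B-complex genes spread around 0. The core subunits IFT46 (-0.12), IFT74 (-0.02), IFT81 (0.02), IFT22 (0.06), IFT25 (0.07), IFT27 (0.03), IFT88 (0.10) and IFT52 (0.12) did not pass, nor did IFT57 (-0.04), IFT20 (0.02) and IFT172 (0.07). IFT52 read 8.30 to 8.36 attached and 8.39 to 8.57 suspended, without overlap (limma adjusted p = 0.136). IFT70A (-0.04) and IFT70B (0.20, limma adjusted p = 0.0563) are near-identical neighbours on chromosome 2, and a probe set of one may read the other, so their values are uncertain; IFT70B was called when attached replicate 2 or suspended replicate 2 was dropped (both 0.24). In the A complex IFT140 (0.18, limma adjusted p = 0.0777), IFT43 (0.09) and IFT122 (-0.03) were not called, though IFT140 was when attached replicate 2 was dropped (0.24).

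IFT74 is the member with the largest standard error. It read 7.29, 7.07, 7.11 and 7.21 attached and 6.94, 7.40, 7.38 and 6.88 suspended, so the suspended arrays lie on both sides of the attached ones, and a difference of -0.02 (SE 0.116) sums up neither pair.

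X-box matches were more frequent in promoter windows of IFT and BBS genes than in the whole table. The motif lay in 6 of 27 windows (22.2%), in 11.5% of the windows of the centrosome members and in 4.82% of all. It lay in 4 of 19 windows of members that fell (21.1%), 1 of 3 of those that rose and 12.3% of those not called. The shorter GTTGCC, one arm of the X-box, which can lie inside a full match, was in 48.1% of the IFT and BBS windows and 12.2% of all. The matches of 5 IFT genes are shown, in capitals, because a gene that rose (IFT80), one that fell (IFT56) and 3 that were not called carry them alike. They lie at chr3:160399191-160399220 (minus strand, IFT80), chr7:139133756-139133785 (plus, IFT56), chr3:108222433-108222462 (minus, IFT57), chr2:177618719-177618748 (minus, IFT70A) and chr2:177552781-177552810 (minus, IFT70B) in GRCh38.p14.
IFT80: tcttagaaGTCACTATGGTGACggggaggt
IFT56: caggcgggGTTACCGTGGAGACagaacgtg
IFT57: ggagtctaGTTTCCCTGGTGACggattgtc
IFT70A: gttgccctGTTGCCGTGGTAACcgcacgca
IFT70B: gttgctctGTTGCCATAGTAACcgcaccca

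Of 8 BBS genes 3 rose and 0 fell, all 3 encoding BBSome subunits. That is 37.5% called, against 20.6% of all genes. BBS2 read 6.20, 6.04, 6.11 and 6.14 attached and 6.79, 6.55, 6.55 and 6.53 suspended. The groups do not overlap and suspended replicate 1 is highest; the difference was 0.48 (SE 0.065, limma adjusted p = 3.05e-04), and 0.42 without that array. BBS9 read 5.96, 5.93, 6.08 and 6.04 attached and 6.24, 6.34, 6.30 and 6.24 suspended (0.27, SE 0.051, limma adjusted p = 0.00248).

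BBS1 lies at the threshold. It read 6.48, 6.44, 6.36 and 6.38 attached and 6.50, 6.51, 6.65 and 6.69 suspended (0.17, SE 0.057, limma adjusted p = 0.04996), and the lowest suspended value is only just above the highest attached one. The call was lost when any 1 of the attached arrays, or replicate 3 or 4 of the suspended ones, was dropped (0.14 to 0.20 in the 8 refits). BBS4, another subunit, read 6.76 to 6.91 attached and 6.92 to 7.00 suspended, groups that do not overlap, yet missed the threshold (0.10, limma adjusted p = 0.187). The subunits BBS7 (-0.18) and BBS5 (-0.11) and the chaperonin-like BBS10 (0.03) and BBS12 (-0.01), which help assemble the complex, did not pass; BBS7 did when suspended replicate 3 was dropped (-0.24).

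Genes that work with the IFT trains did not share 1 direction. Of the A complex list 14.3% were called, of the motor list 18.2% and of the BBSome list 26.7%, against 20.6% of all genes. Of 7 genes listed with the A complex, TULP3 among them and 3 being members, WDR19 (0.26) rose and 0 fell. TTC21B (-0.12) and WDR35 (-0.12) were not called. Of 11 motor genes KIFAP3 (0.29), which joins the outward kinesin, rose and DYNC2H1 (-0.25), the heavy chain of the return dynein, fell. DYNLL1 (-0.29, SE 0.107) and KIF3B (0.09) were not called, but DYNLL1 was called lower, for 2 falls among the motors, when attached replicate 2 or suspended replicate 2 was dropped and under 3 other settings (-0.36 to -0.20 in the 8 refits). RAB8A (-0.29), which acts in ciliary membrane delivery, was the 1 fall among 15 genes of the BBSome and its assembly; the falls numbered 2 without suspended replicate 2 and 3 without suspended replicate 3.

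Of 17 transition zone genes AHI1 (0.61) rose and RPGRIP1L (-0.28) and TMEM237 (-0.14) fell, with TMEM231 (-0.24) not called; it was called when attached replicate 2 (-0.31) or suspended replicate 3 (-0.30) was dropped. Rises numbered 2 without suspended replicate 1. RPGRIP1L lost its call when attached replicate 1, 3 or 4, or replicate 1 or 4 of the suspended arrays, was dropped (-0.33 to -0.21), and TMEM237 lost it in all 8 refits (-0.15 to -0.12). Of 11 genes of ciliary and hedgehog signalling GLI3 (0.49) and PTCH1 (0.31) rose and 0 fell, with HHIP (-0.16) and INPP5E (-0.18) not called. GLI2 (0.15), SMO (0.12) and GLI1 (0.09) of that list were not called either. Of 12 transcription factors in a cilium list, RFX1 to RFX7 taken as a family, MYB (-0.42) and E2F4 (-0.21) fell and 0 rose. E2F5 (-0.17) and RFX2 (0.11) were not called. FOXJ1, the regulator of motile cilia, was not called either (0.15, SE 0.077). Called were 17.6% of the transition zone list, 18.2% of the signalling list and 16.7% of the transcription factors, against 20.6% of all genes.

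Suspended replicate 1 was the lowest of the 4 suspended arrays for 13 of the 17 genes that fell. Without it 14 members fell and 4 rose.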

How the data were processed

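RNA of 4 attached and 4 suspended BT549 cultures was read on whole-transcript arrays. The labels name a FlashTag biotin kit, a kind often used for small RNA, for the labelling; what that does to these signals was not tested. The authors deposited 1 log2 signal per probe set and array; Partek is named per the submitters' processing notes, and neither its version nor how background, scaling and probe summaries were handled is given there, and the log2 scale was read from the values. Of 33297 probe sets 19460 carry 1 gene symbol; the probe set with the highest mean stood for each of 18417 genes. The contrast was fitted in limma 3.58.1 (R 4.3.3; lmFit, then eBayes, two-sided), with Benjamini-Hochberg adjustment over all these genes and a threshold of 0.05, and the script was tested on simulated data. The members and gene lists were chosen with earlier results of these data known, so lists are described by counts and medians only. All members are named. All 8 values are given for the called members with the 8 largest differences in each direction and for PLK4, STIL, SASS6, CPAP and PCNT. For each gene list other than the cell type markers, the 4 genes of smallest adjusted p are named with their differences. Motifs were searched in RefSeq promoter windows (GRCh38.p14), with short stretches printed across a start where the match lies there. Alternatives covered scaling, filters, probe set choice, weights, a replicate block and each array left out. The number of arrays limits the precision. Array pairs with identical values numbered 0. List genes with no matching symbol (such as MZT1, CEP83 and BBIP1) were not analysed here.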

Additional observations from a re-analysis of the deposited data

Results flagged for a closer look

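Among 144 groups of 4 arrays (72 genes, attached and suspended), 3 held a value whose gap to the nearest of the others was above the 95% critical value of Dixon's test, or 2.08%; chance gives about 1 in 20. PLK4 on suspended replicate 1 was lowest at 7.55, with the other 3 between 7.74 and 7.77. BBS2 on the same array was highest at 6.79, with the other 3 between 6.53 and 6.55. CEP170B on attached replicate 1 was lowest at 6.97, with the other 3 between 7.14 and 7.15.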

How the results depend on the processing

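Of the 21 called members 16 kept the call in each of the 17 other settings that tested them, of which BBS2, BBS9, CEP57L1 and CEP152 were left out by a filter on low signals in at least 1; BBS1, CEP43, CEP85, IFT56 and NEDD1 lost it in some, and 0 members changed direction. With only genes above the median signal 2 members were called higher, in place of 4, since that filter left out BBS2 and BBS9 (49.1 and 43.9 as percentiles of signal). Centring each array on its median moved the members' median from -0.0356 to -0.0585 and that of all genes from 0.02 to 0.00, and rises made up 42.5% of all calls, against 50.4% as reported and 54.5% with quantile normalization. Leaving out 1 array at a time gave 3 to 5 members higher, 13 to 18 lower, a median of -0.05 to -0.02 and 2934 to 3752 genes called in all. With the replicate number as a block 3 members were higher, 13 lower and 3022 genes called in all. Deviations of same-numbered arrays correlated at -0.20 to 0.04, so no shared effect of the number was seen. Whether same-numbered cultures were set up together cannot be told from these values. Uncalled members called in at least 1 setting were BBS7, CEP85L, IFT140, IFT70B, CEP170 and TUBG1. Low signals, with no background measure used here, limit 9 members below the 25th percentile.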

Other observations

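Within the suspended group replicates 1 and 4 differed from replicates 2 and 3 for a few members. IFT74 read 6.94 and 6.88 on the former and 7.40 and 7.38 on the latter. CEP43 read 6.31 and 6.32 against 6.65 and 6.58, and CEP162 5.63 and 5.70 against 6.06 and 6.02. The mean of the G2/M list was 8.94 and 8.93 on replicates 1 and 4 and 9.04 on both others. These genes were picked after their values were seen, and no test was made.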
